A study of Arabidopsis thaliana with 6 samples.

Results

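Chromosome 3 of Arabidopsis thaliana carries, on both sides of its centromere, a stretch of heterochromatin that is dense in transposable elements and their remnants. The loci described here are those of the RefSeq gene type pseudogene, which for this plant also covers genes annotated as transposable elements, with locus tags from AT3G29500 to AT3G44000. A locus was included where a probe set, the group of short oligonucleotides that reads 1 transcript on the array, is assigned to it and to no other gene. This rule gave 145 probe sets of 22746 tested, 1 for each of 145 loci, and they stand for 21.0% of the 689 RefSeq loci of that type in the stretch. RefSeq lists no symbol for any of the 145 beyond its locus tag and gives no element family, so the loci are named by tag.

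Transposable elements are kept silent in plants by DNA methylation, by methylation of histone H3 at lysine 9 and by small RNAs. DDM1 is a chromatin remodelling protein that opens heterochromatin to the DNA methyltransferases, among them MET1, which copies CG methylation after replication. Plants without DDM1 lose methylation over heterochromatin and transcribe many elements, and repeated selfing of such plants is known to add further heritable changes.

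The RNA came from unopened flower buds of 2 genotypes, with 3 biological replicates each, 6 arrays in all. One group is wild type of the Columbia accession, written wt Col in the labels, and the other is the mutant ddm1 in inbred generation F6. All plants grew on soil at 23 °C under 18 hours of light a day. The mutant allele, the generation of the wild type plants and the number of plants behind a replicate are not stated by the labels, so loss of DDM1 and the inbreeding of the mutant line cannot be told apart.

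The deposited log2 values, made with GCRMA, express each probe set relative to a baseline of the authors. A value of 0 is therefore the baseline and not an absence of RNA, differences between arrays are kept, and the level of a probe set is lost. GCRMA compresses dim signals, and whether a locus lay above background in wild type is unknown, so a difference may understate the change. Differences below are ddm1 minus wild type on the log2 scale, with the standard error (SE) of a limma fit over all probe sets, n = 3 arrays in each genotype. A probe set was called at a limma adjusted p under 0.05 (Benjamini-Hochberg over all probe sets tested).

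The annotation bears out the label of the stretch. Of 1002 RefSeq loci in it, 68.8% are of the pseudogene type and 23.95% are protein-coding, against 10.3% and 72.4% of 37899 nuclear loci in all. The tissue label could not be checked in the same way, because centred values hold no level. Of 9 floral bud markers, 3 had a probe set that the annotation used here assigned to that gene alone. The others may be on the array without such an assignment. The tapetum genes AMS and A9 stood at -1.23 ± 0.083 (SE) and -1.08 ± 0.099 and were called lower, while the floral meristem gene UFO stood at 0.0025 ± 0.027. In bulk buds fewer cells of a type and less RNA per cell cannot be told apart, and the part of cell composition in the results below was not tested. DDM1 itself was not analysed here. Of 26 genes of the silencing machinery, 3 had a probe set assigned in this way, and the others may likewise be on the array. Of the 5 probe sets of these 3 genes limma called 0 higher and 2 lower. Those were the linker histone genes H1.1 (-0.18 ± 0.038, adjusted p = 0.0492) and H1.2 (-0.35 ± 0.049, adjusted p = 0.0149), whose calls were lost in 6 and in 3 of 6 leave-one-out fits (highest adjusted p = 0.139 and 0.0638). The 3 probe sets of DME, a DNA demethylase gene, were not called.

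About 1 in every 5 of the 145 loci had more RNA in ddm1 buds than in wild type buds, and none was called lower. The limma fit called 32 loci higher, or 22.1%, against a background of 3.5% of all probe sets tested. A rise of at least 2-fold was called at 31 of the 145 loci, or 21.4%, against a background of 1.67%. Limma called 0 loci lower, against a background of 5.68%, and 0 were lower even at an unadjusted p under 0.05, where 44 were higher. The median difference over the 145 loci was 0.048, beside 0.0045 over all probe sets, so the typical locus barely differed and the rises belonged to a minority. Without ddm1 replicate 3 the median was 0.014, and without ddm1 replicate 1 it was 0.076.

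The rises were large. Among the 32 loci the difference ran from 0.81 to 11.41 with a median of 4.12. It lay below 1 at 1 locus, from 1 to below 2 at 4, from 2 to below 4 at 11, from 4 to below 8 at 10, and at 8 or more at 6. The 145 loci make up 0.637% of the probe sets tested, and they hold 13 of the 100 largest rises on the array. At all 32 loci the lowest ddm1 array lay above the highest wild type array. The calls were made on these same arrays and favour loci whose groups are apart, so this separation is not further support. Groups were also fully apart, with ddm1 higher, at 19 of the 113 loci that were not called. Together that makes 51 of 145, against a background of 10.4% for groups apart in this direction.

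**Figure D1:**
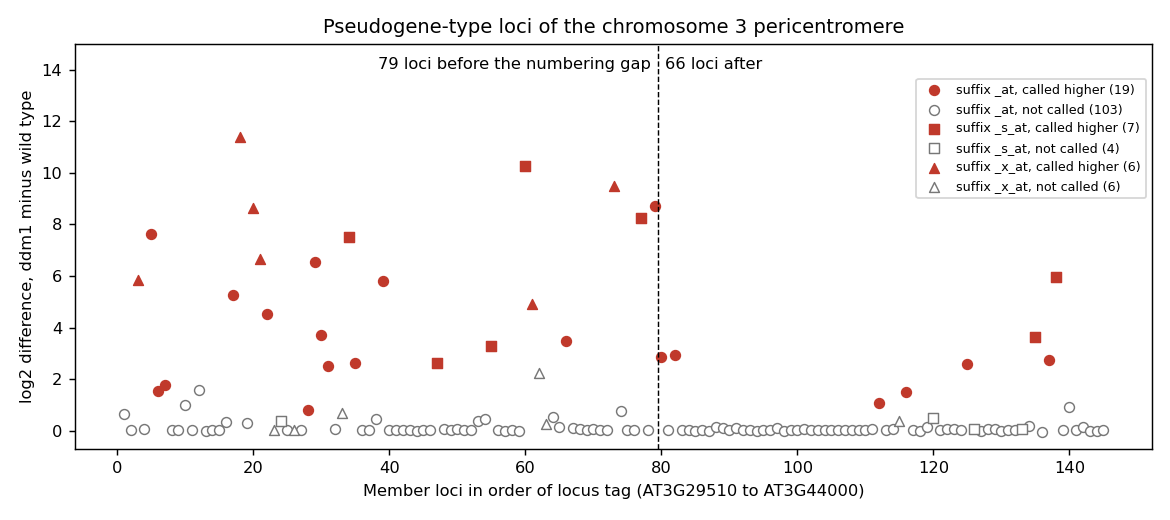
Log2 difference of ddm1 from wild type (y axis) for the 145 pseudogene-type loci in order of locus tag (x axis), with symbols for the probe set suffix and filled symbols for the 32 loci called higher. The 24 called loci before the numbering gap reach 11.41, and the 8 after it reach 5.97.

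The biggest rise was at AT3G30396. Its wild type values were -9.10, -9.09 and -9.08, and its ddm1 values were 2.27, 2.34 and 2.35. The arrays of each genotype nearly coincided, and the difference was 11.41 ± 0.031 (SE, limma adjusted p = 9.55e-09), the fourth largest of all probe sets tested. AT3G31955 read -7.51, -7.51 and -7.33 in wild type versus 2.81, 2.67 and 3.00 in ddm1. The groups stood far apart, by 10.28 ± 0.10 (adjusted p = 3.78e-07). At AT3G32900 the wild type arrays gave -6.04, -5.97 and -5.76 and the ddm1 arrays 3.67, 3.47 and 3.54, a difference of 9.48 ± 0.090 (adjusted p = 3.65e-07). AT3G30396 and AT3G32900 are read by probe sets with the suffix _x_at and AT3G31955 by one with the suffix _s_at, which mark oligonucleotides shared with other transcripts. Each of these values may therefore combine RNA from several related loci.

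The widest difference at a probe set with the plain suffix _at, which is designed for 1 transcript, was at AT3G33080. This locus is the last of the 145 before the gap in their numbering. It read -5.36, -5.34 and -5.31 in wild type versus 3.44, 3.13 and 3.58 in ddm1, a rise of 8.72 ± 0.12 (SE, limma adjusted p = 1.27e-06). AT3G33066, 2 places before it in the order of measured loci and read by an _s_at probe set, gave -5.19, -5.24 and -5.22 against 3.11, 2.87 and 3.14. Here too the 3 arrays of a genotype lay close together, and the rise was 8.26 ± 0.077 (adjusted p = 3.61e-07). Between them lies AT3G33073, where the difference was 0.010 ± 0.029 (adjusted p = 0.877). Neighbours in the order thus included 2 rises of more than 8 log2 units and, between them, a difference smaller than its SE.

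Other plain _at loci with strong rises showed the same tight groups. AT3G29650 read -4.003, -3.96 and -3.94 in wild type versus 3.82, 3.58 and 3.55 in ddm1 (7.62 ± 0.078 SE, limma adjusted p = 4.32e-07). For AT3G30610 the values were -3.19, -3.25 and -3.23 against 3.32, 3.13 and 3.46, or 6.53 ± 0.086 (adjusted p = 1.19e-06). At both loci the spread within each genotype was small beside the difference. AT3G30830 gave -1.89, -1.79 and -1.96 in wild type versus 3.98, 3.86 and 3.95 in ddm1 (5.81 ± 0.056, adjusted p = 3.78e-07). AT3G30360 gave -1.82, -1.55 and -1.63 against 3.42, 3.71 and 3.63 (5.25 ± 0.11, adjusted p = 5.9e-06). AT3G30480 differed from these in where its baseline lay, with wild type at -0.20, -0.18 and -0.028 and ddm1 at 4.37, 4.34 and 4.40, and its rise was 4.51 ± 0.055 (adjusted p = 8.82e-07).

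**Figure D2:**
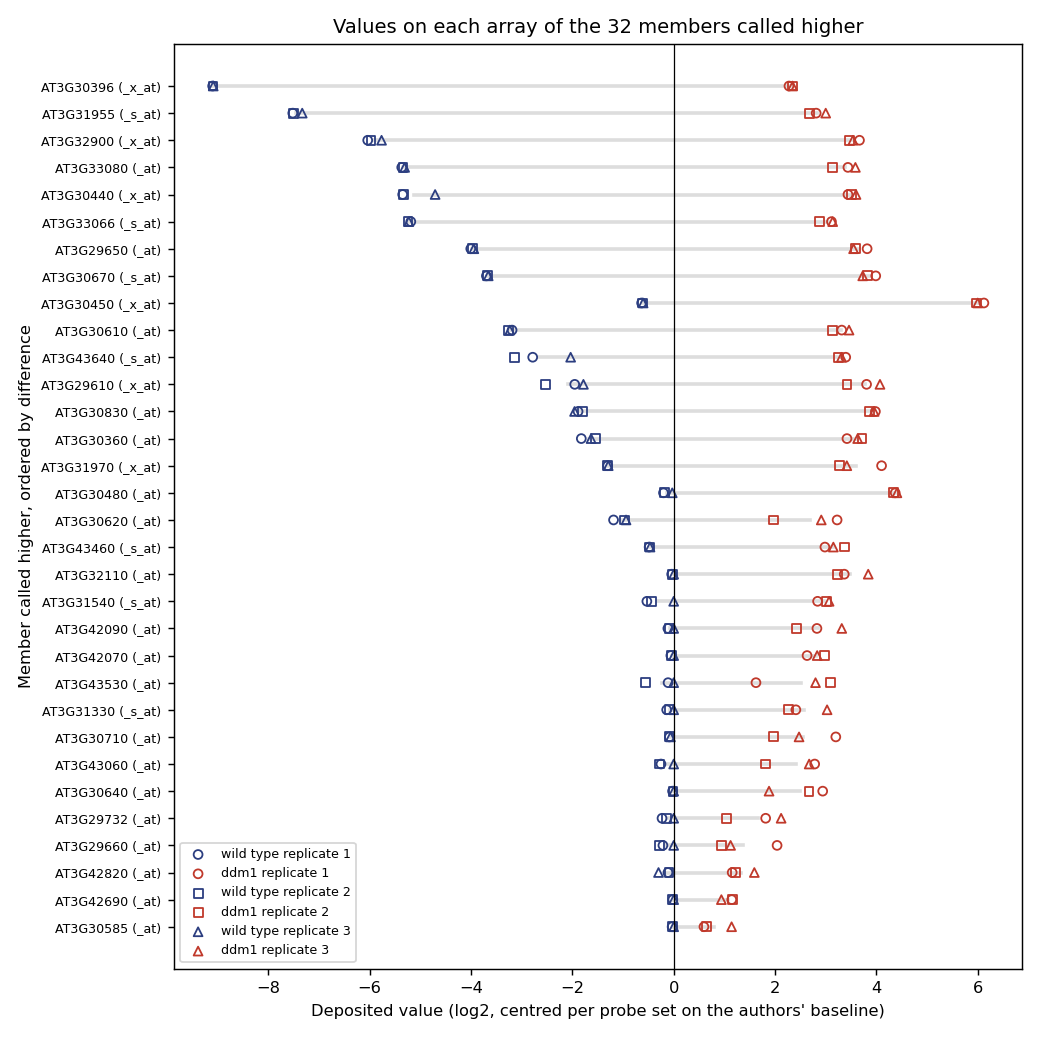
Deposited centred log2 value (x axis) on each of the 6 arrays for the 32 loci called higher (y axis, ordered by difference), with blue symbols for wild type, red for ddm1, a symbol shape for each replicate and a grey line between the group means. Wild type and ddm1 symbols do not overlap at any locus, and the ddm1 symbols spread more widely at the lower end of the order.

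Among the remaining _x_at and _s_at loci the wild type arrays were sometimes the less even group. AT3G30440 read -5.35, -5.34 and -4.71 in wild type versus 3.44, 3.51 and 3.60 in ddm1, so that wild type replicate 3 lay above the other two, and the rise was 8.65 ± 0.19 (SE, limma adjusted p = 7.72e-06). AT3G43640 gave -2.78, -3.13 and -2.03 against 3.39, 3.25 and 3.31, again with wild type replicate 3 uppermost (5.97 ± 0.28, adjusted p = 0.000228). AT3G29610 gave -1.95, -2.52 and -1.78 against 3.81, 3.42 and 4.07 (5.85 ± 0.25, adjusted p = 0.000162). The distance between the groups was larger than the spread within either of them at all 3 loci. AT3G30670 was even in both genotypes, at -3.69, -3.68 and -3.66 against 3.99, 3.83 and 3.73 (7.52 ± 0.069, adjusted p = 3.38e-07). AT3G30450 reached the highest ddm1 values of any called locus, 6.12, 5.98 and 5.998, from wild type values of -0.63, -0.62 and -0.60 (6.65 ± 0.045, adjusted p = 1.08e-07). AT3G31970 gave -1.30, -1.31 and -1.29 against 4.10, 3.28 and 3.42, with ddm1 replicate 1 uppermost (4.90 ± 0.22, adjusted p = 0.000189).

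Below these, differences of about 3 to 4 log2 units came mostly from loci whose wild type arrays lay close to the baseline. AT3G43460 read -0.48, -0.48 and -0.47 in wild type versus 2.98, 3.36 and 3.15 in ddm1 (3.64 ± 0.098 SE, limma adjusted p = 1.81e-05). AT3G32110 rose from -0.039, -0.026 and 0 to 3.37, 3.23 and 3.84 (3.50 ± 0.16, adjusted p = 0.000204). AT3G31540 rose from -0.53, -0.44 and 0 to 2.84, 3.01 and 3.07 (3.29 ± 0.15, adjusted p = 0.000216). At AT3G32110 ddm1 replicate 3 lay above the others, and at AT3G43460 and AT3G31540 the ddm1 arrays were closer together. The 2 called loci that follow the numbering gap first were of similar size, AT3G42070 at 2.85 ± 0.091 and AT3G42090 at 2.92 ± 0.23, and AT3G42080 between them gave 0.031 ± 0.032 and was not called. The 4 called loci not described elsewhere were AT3G31330 (2.64 ± 0.20), AT3G43060 (2.60 ± 0.28), AT3G42820 (1.49 ± 0.13) and AT3G42690 (1.09 ± 0.065). AT3G42690 was the smallest rise past 2-fold, from wild type values of -0.017, -0.025 and 0 to ddm1 values of 1.15, 1.15 and 0.94, and it was among the more even loci.

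The baseline itself fell at different points between the genotypes. At 15 of the 32 called loci the wild type mean lay below -1, down to -9.09, while the ddm1 means of these loci kept to a range from 2.32 to 3.93. At the other 17 the wild type mean ran from -0.62 to -0.012 and the ddm1 mean from 0.79 to 6.03. The median rise was 7.52 in the first set and 2.64 in the second. The wild type mean is a term of the rise, so splitting on it favours a larger rise in the first set. The 15 held 6 plain _at, 4 _s_at and 5 _x_at probe sets, and the 17 held 13, 3 and 1. The labels do not say which samples set the baseline, and the cause of the division was not tested.

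The suffix of the probe set went with the share of loci called higher. Of 122 plain _at loci 19 were called higher (15.6%), of 11 _s_at loci 7 (63.6%) and of 12 _x_at loci 6 (50%). Over all probe sets tested with the same suffix the shares were 2.99%, 9.3% and 46.8%. The _x_at share was close to its background, but that background is itself made up mostly of pseudogene-type probe sets. Of its 126 probe sets 59 were called higher. Those 59 include 6 of the loci here, 42 pseudogene-type ones on the other chromosomes and 5 elsewhere on chromosome 3. The median difference was 0.035 over the _at loci, 3.29 over the _s_at loci and 3.56 over the _x_at loci. Pseudogene-type probe sets on chromosomes 1, 2, 4 and 5 gave 17.2% of 577, 42.9% of 91 and 70.0% of 60 for the same 3 suffixes, and those elsewhere on chromosome 3 gave 14.3% of 35, 55.6% of 9 and 83.3% of 6. In all, 24.7% of 728 pseudogene-type probe sets on the other chromosomes and 30% of 50 elsewhere on chromosome 3 were called higher, with median differences of 0.050 and 0.030. The differences between these classes were not tested.

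**Figure D3:**
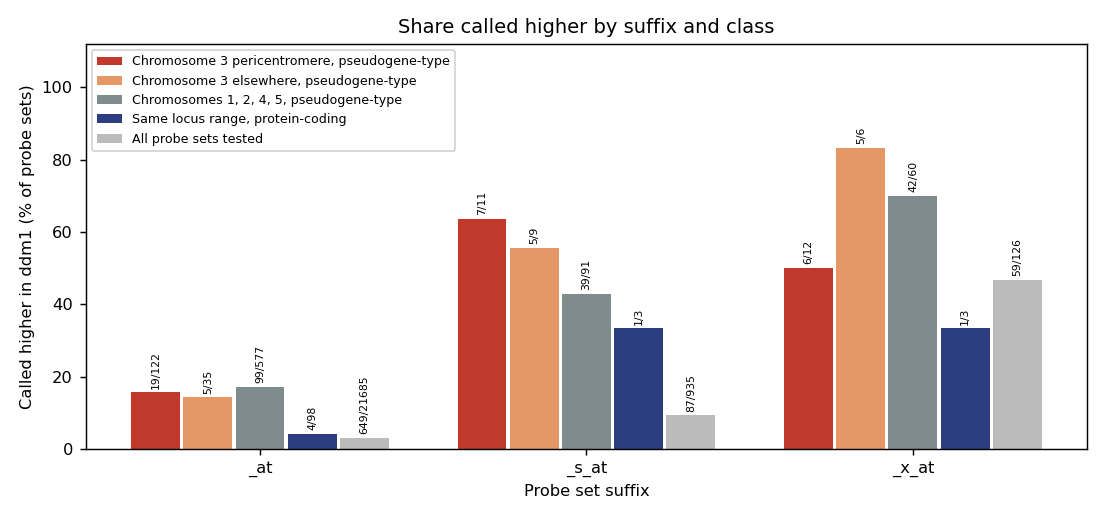
Share of probe sets called higher in ddm1 (y axis, percent) by suffix (x axis) for the pseudogene-type loci of the stretch, pseudogene-type loci elsewhere, protein-coding loci of the same stretch and all probe sets tested, with the number called and the number tested above each bar. For plain _at probe sets the 3 pseudogene-type classes lie between 14.3% and 17.2% and all probe sets at 2.99%.

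Along the locus order the calls lay unevenly. The tags of the 145 loci jump from AT3G33080 to AT3G42070, in the region where the centromere lies. Protein-coding loci such as AT3G33530 and AT3G42050 were measured with tags inside the jump. Before this gap 24 of 79 loci were called higher (30.4%), with a median of 0.10 over all 79, and after it 8 of 66 (12.1%), with a median of 0.031. Most of the _s_at and _x_at loci lay before the gap, 17 of 23. For plain _at loci alone the counts were 13 of 62 (21.0%) and 6 of 60 (10.0%). Among called _at loci the largest rise was 8.72 before the gap and 2.92 after it. The difference between the sides was not tested.

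In groups by the first digits of the tag number, 4 of 10 loci from AT3G29510 to AT3G29792 were called higher, 12 of 31 numbered AT3G30, 4 of 20 numbered AT3G31, 2 of 14 numbered AT3G32 and 2 of 4 numbered AT3G33. Past the gap the counts were 4 of 42 numbered AT3G42 and 4 of 23 numbered AT3G43, and AT3G44000 was not called. Called loci stood alone in the order of the 145 loci 12 times, in pairs 5 times and in threes 2 times. The pairs include AT3G33080 with AT3G42070, which lie on opposite sides of the numbering gap. The longest run held 4 neighbouring measured loci, AT3G30585, AT3G30610, AT3G30620 and AT3G30640. AT3G30610 has been given above. AT3G30620 read -1.19, -0.96 and -0.94 in wild type versus 3.22, 1.96 and 2.91 in ddm1, with ddm1 replicate 2 lowest (3.73 ± 0.33 SE, limma adjusted p = 0.00298). AT3G30640 read -0.022, -0.015 and 0 against 2.94, 2.67 and 1.88, with ddm1 replicate 3 lowest (2.51 ± 0.27, adjusted p = 0.00615). The loci of the run thus did not share their lowest ddm1 array.

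AT3G30585, the first of that run, was the single locus called with less than a 2-fold rise. It read -0.030, -0.023 and 0 in wild type versus 0.60, 0.64 and 1.14 in ddm1, so ddm1 replicate 3 lay above the other two. The difference was 0.81 ± 0.15 (SE, limma adjusted p = 0.0345), and the call was lost without wild type replicate 1, 2 or 3 (adjusted p = 0.114, 0.0979 and 0.0981) and without ddm1 replicate 2 (0.0614).

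The longest run of uncalled loci held 29 neighbours, from AT3G42100 to AT3G42680, all after the gap. Their differences ran from 0.0042 to 0.16. The first of them, AT3G42100, read -0.0069, 0 and 0.0095 in wild type versus -0.0025, 0.015 and 0.040 in ddm1, and the genotypes overlapped (0.017 ± 0.026 SE, limma adjusted p = 0.8). AT3G42110, AT3G42120, AT3G42190, AT3G42220 and AT3G42260 gave differences of 0.021, 0.0042, 0.023, 0.0077 and 0.015. AT3G42240 had the widest difference of the run, from wild type values of 0, 0 and 0.022 and ddm1 values of 0, 0.063 and 0.44, which rested on ddm1 replicate 3 (0.16 ± 0.12, adjusted p = 0.515). AT3G42250 gave -0.028, -0.099 and 0.24 against 0, 0.13 and 0.25, with replicate 3 uppermost in both genotypes.

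The spread between replicates was wider in ddm1 than in wild type at most loci. The ddm1 SD was above the wild type SD at 25 of the 32 called loci and at 105 of the 113 uncalled loci, against 64.6% of all probe sets tested. Of the called loci this held at 10 of the 15 with a wild type mean below -1 and at 15 of the other 17. Uncalled protein-coding loci of the stretch, such as AT3G29690 and AT3G29750, also spread more widely over the ddm1 arrays. The wider spread is thus not particular to the pseudogene-type loci. Single arrays moved with the wider spread at the 113 uncalled loci. There ddm1 replicate 3 was the highest ddm1 array at 97 and ddm1 replicate 1 the lowest at 92. Over all 22746 probe sets tested replicate 3 was the highest ddm1 array at 11312 and replicate 1 the lowest at 11583. The part of these arrays in the wider spread was not tested. The median ddm1 SD was 0.18 at called loci, against 0.065 in wild type, and 0.050 at uncalled loci, against 0.018. Of the called loci, 7 had a ddm1 SD above 0.5, and ddm1 replicate 2 was the lowest of the ddm1 arrays at 5 of these 7. Over all 32 called loci replicate 2 was lowest at 19, replicate 1 at 9 and replicate 3 at 4. Over all 22746 probe sets tested the counts in the same order were 6078, 11583 and 5085.

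The least even of the called loci was AT3G43530. It read -0.11, -0.56 and 0 in wild type versus 1.62, 3.10 and 2.80 in ddm1 (2.73 ± 0.42 SE, limma adjusted p = 0.0184), so here replicate 1 was the low ddm1 array. At AT3G30710 the wild type arrays stood at -0.084, -0.077 and -0.064 and the ddm1 arrays at 3.20, 1.97 and 2.47 (2.62 ± 0.31, adjusted p = 0.00788). AT3G29660 gave -0.21, -0.29 and 0 against 2.04, 0.94 and 1.12 (1.53 ± 0.30, adjusted p = 0.0396), and AT3G29732 gave -0.23, -0.15 and 0 against 1.81, 1.03 and 2.12 (1.78 ± 0.28, adjusted p = 0.0215). In the last 3 loci ddm1 replicate 2 was lowest. The call of AT3G43530 was lost without any 1 of the wild type arrays or without ddm1 replicate 3, with limma adjusted p from 0.056 to 0.0673. That of AT3G29660 was lost without the same arrays (0.0846 to 0.129), and that of AT3G29732 without any 1 of the wild type arrays or without ddm1 replicate 1 (0.0645 to 0.0825).

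**Figure D4:**
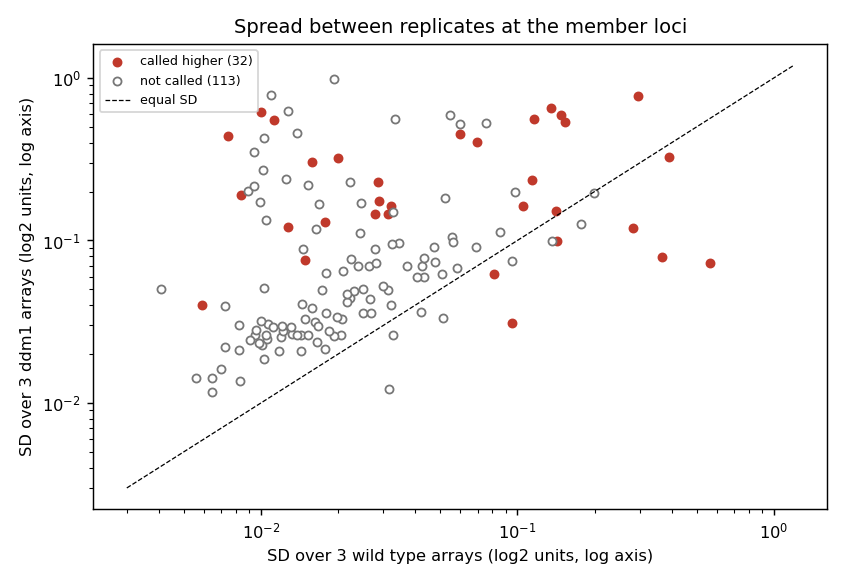
SD over the 3 ddm1 arrays (y axis) against SD over the 3 wild type arrays (x axis), both in log2 units on log axes, for the 145 loci, with filled symbols for the 32 called higher and a dashed line of equal SD. Of the called loci 25 lie above the line, and of the uncalled loci 105.

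Some loci that missed the threshold differed by more than several that passed it. AT3G32000, an _x_at locus, read -0.037, -0.028 and 0 in wild type versus 3.22, 1.25 and 2.16 in ddm1 (2.23 ± 0.49 SE, limma adjusted p = 0.0535). AT3G30190 read -0.018, -0.020 and 0 against 1.64, 0.76 and 2.34 (1.60 ± 0.39, adjusted p = 0.0746). In both the genotypes were fully apart and ddm1 replicate 2 was lowest. AT3G29792 gave -0.020, 0 and -0.11 against 1.15, 1.38 and 0.39 (1.02 ± 0.26, adjusted p = 0.0828), with ddm1 replicate 3 lowest. AT3G43680 gave -0.028, -0.016 and 0 against 1.40, 0.51 and 0.77 (0.91 ± 0.23, adjusted p = 0.0794), and AT3G32910 gave -0.018, -0.0043 and 0 against 0.35, 0.91 and 0.99 (0.76 ± 0.17, adjusted p = 0.061). In all, 9 uncalled loci had an adjusted p under 0.1, and their differences ran from 0.27 to 2.23. AT3G29510, the first locus of the stretch, was not among them: its ddm1 values of 0, 0.67 and 1.19 overlapped the wild type values of -0.085, -0.067 and 0.018 (0.66 ± 0.30, adjusted p = 0.263).

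The 113 uncalled loci fell into 25 with a difference of 0.1 or more and 88 closer to 0. In all 25 the ddm1 mean was the higher, and in 19 the groups were fully apart. Over all probe sets tested these shares were 52.3% and 10.4%, but those probe sets were not picked for a difference. The medians of these 25 loci were -0.021, -0.016 and 0 on the wild type arrays and 0.35, 0.13 and 0.55 on ddm1 replicates 1, 2 and 3. Replicate 2 was the lowest ddm1 array at 15 of them, against 6078 of all 22746 probe sets tested.

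At the other 88 the ddm1 mean was the higher in 86, against 52.3% of all probe sets tested. At these loci ddm1 replicate 3 stood apart from the other 5 arrays. It gave the highest of the 6 values at 80 of the 88 loci, against 30.9% over all probe sets tested. The 88 were picked for a small difference, and the probe sets behind the 52.3% and the 30.9% were not. Many uncalled protein-coding loci of the stretch, such as AT3G29690 and AT3G43990, also had ddm1 replicate 3 highest. The pattern is therefore not particular to the pseudogene-type loci. Their medians were -0.014, 0 and 0.017 on wild type replicates 1, 2 and 3 and -0.0092, 0.012 and 0.059 on ddm1 replicates 1, 2 and 3, so ddm1 replicate 1 lay below both wild type replicates 2 and 3. The closest differences to 0 were those of AT3G42120, AT3G43080 and AT3G43140, at 0.0042 ± 0.046 (SE), -0.0046 ± 0.039 and 0.0049 ± 0.027. AT3G44000, the last locus, read -0.024, 0 and 0.019 in wild type versus -0.0087, 0.015 and 0.082 in ddm1 (0.031 ± 0.035, limma adjusted p = 0.691). A locus near background on all 6 arrays would look the same as one with equal RNA, and the centred values do not part them.

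**Figure D5:**
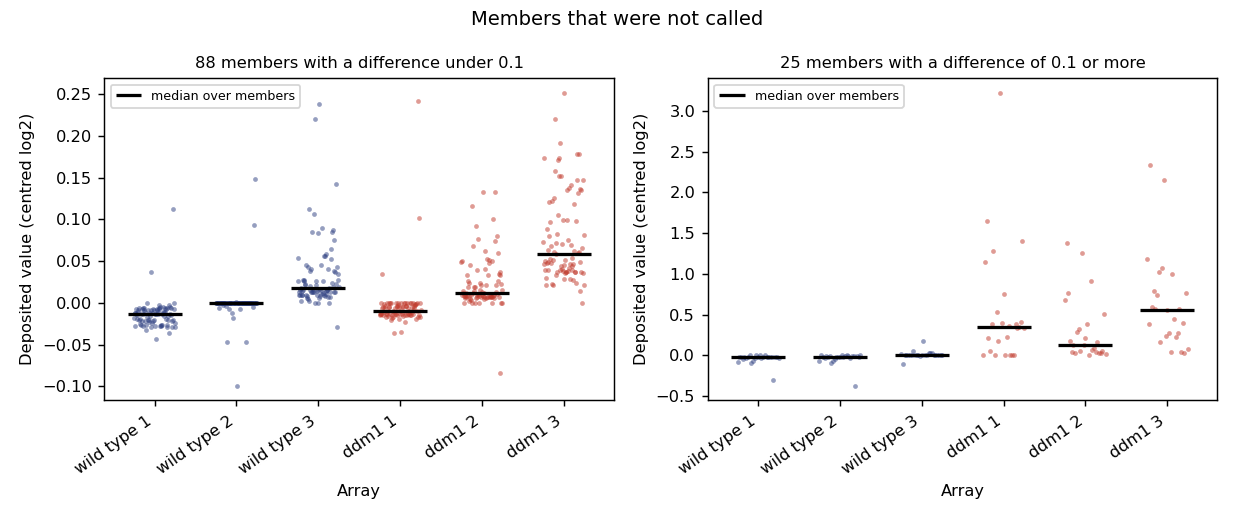
Deposited centred log2 value (y axis) on each array (x axis) for the uncalled loci, as 1 point a locus with black bars for the median over loci, in the left panel for the 88 with a difference under 0.1 and in the right panel for the 25 with 0.1 or more. On the left the median is highest on ddm1 replicate 3, at 0.059, and on the right all 3 ddm1 medians, 0.35, 0.13 and 0.55, lie above the wild type medians.

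Protein-coding loci of the same stretch gave a reference read on the same arrays. Of 104 single-gene probe sets 6 were called higher (5.77%), against a background of 3.5%. Limma called 3 of the 104 lower, or 1 or 2 when any array was left out, against a background of 5.68%. The median difference was 0.013. The widest rise among them was at QQS (AT3G30720), a gene known for its part in starch metabolism and for silencing by DNA methylation, with -3.30, -2.60 and -2.65 in wild type versus 2.33, 2.16 and 2.56 in ddm1 (5.20 ± 0.22 SE, limma adjusted p = 0.000141). Its nearest measured pseudogene-type locus by tag was AT3G30710, called higher as given above. AT3G31910 followed at 2.80 ± 0.29 (adjusted p = 0.0049), beside AT3G31915, which was not called (0.019 ± 0.032).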

How the data were processed

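Per the submitters' processing notes the authors used GCRMA. Its version, the build behind the array and the baseline samples are not stated in the labels. The deposited table holds 22810 probe sets of centred log2 values, the log base being inferred from GCRMA and the range of values. Tests covered 22746 of these, all but 64 array controls. GEO's platform annotation gave 1 gene for 13513, of which 13436 matched RefSeq (TAIR10.1) by gene number.

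The 2 genotypes were contrasted by limma 3.58.1 under R 4.3.3 (lmFit, eBayes, genotype as the only term, 3 arrays against 3), two-sided. Alternatives left out each array, added the replicate number as a block, and changed the variance model, centring, filter, probe sets and threshold. The fit was tested on simulated data. Figures used Python 3.11.15 and matplotlib 3.10.9. The members, lists and rules were chosen with earlier results of these data known.

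Named with values were the 20 largest rises, the 5 largest per suffix, loci called under 2-fold, the 5 largest and 3 smallest uncalled differences, the end loci and up to 8 loci of the longest runs. Other loci in the text were named after their values were seen. A planned look at promoter sequences was not run.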

Additional observations from a re-analysis of the deposited data

How the results depend on the processing

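Of the 32 loci called higher, 26 kept the call under every alternative run and 6 lost it under at least 1 (AT3G29660, AT3G29732, AT3G30585, AT3G30710, AT3G42820 and AT3G43530); no call turned direction, and under every alternative 0 were called lower. For the 39 loci named by the rule stated above, the call stayed as it was in 582 of 603 values. It was lost in 9, all at AT3G30585, and gained in 12. The 39 leave out AT3G29660, AT3G29732, AT3G30710, AT3G42820 and AT3G43530, which lost the call under 10, 8, 2, 1 and 8 of 16 alternatives. Leaving out 1 array gave 28 to 37 loci called higher and 28 to 34 at least 2-fold, a median of 0.014 to 0.076, and 1 or 2 lower protein-coding loci in the stretch, 1 without ddm1 replicate 3 or any wild type array. With plain _at probe sets only, fewer loci being fitted, 19 were higher, 18 at least 2-fold and 13 before the gap. With the flattest 25% of probe sets left out, 84 loci remained with a median of 0.46, and 39 were higher. That filter used the SD over all 6 arrays, which includes the difference between genotypes. It therefore favoured loci that differ, and the higher median cannot be read as a separate result. Of the protein-coding loci, 1 was lower without variance moderation, against a 1.5-fold change and at an adjusted p under 0.01, and 3 were higher against a 1.5-fold change. Apart from these reasons, the cause was not tested.

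The deviations of wild type and ddm1 arrays with 1 number correlated at 0.0752, 0.0900 and 0.0159. Those of arrays with different numbers correlated at -0.0907 to 0.0229. The first 2 same-number values lay above that range, but all were small, and whether the numbers pair the arrays was not tested. With a replicate block 26 loci were higher, all of them among the 32, 6 of them after the gap, and the median stayed 0.048. Signal over background is unknown from centred values, which limits what an uncalled locus shows.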
